A study of Mus musculus with 9 samples.

Results

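The genes described here were 9 integrin subunits expected in osteoblasts, the beta subunits *Itgb1*, *Itgb3*, *Itgb5* and *Itgb8* and the alpha subunits *Itgav*, *Itga1*, *Itga5*, *Itga6* and *Itga11*. They were chosen by gene name from the 55416 genes of the count table, and *Itgb3* and *Itgb8* were selected because of their values against Control in these same libraries. For *Itgb3* and *Itgb8* all differences between conditions are therefore given as a description, with no test. Of the 9 genes, 8 passed the filter on low counts, as did 13679 genes in all, and *Itga6* did not. RNA was measured by stranded poly(A) sequencing in MC3T3-E1, a wild-type mouse pre-osteoblast line from calvarial bone. All cells had been differentiated for 27 days in osteogenic medium with 10 mM β-glycerophosphate (BGP), ascorbic acid and dexamethasone, so the controls too had met BGP, which the methods of the study leave out of the medium in the last days before treatment. The cells then received 4 mM BGP, an organic phosphate, 4 mM Na2HPO4/NaH2PO4 (NaHPO4), an inorganic phosphate, or neither (Control) for 16 hours. By the methods of the study, the base medium itself held inorganic sodium phosphate in all conditions, Control included. Each condition had 3 libraries of 21390839 to 28234404 counts. The labels do not say whether these were separate cultures, so p-values measure only the spread between these samples, which may be technical. MC3T3-E1 is 1 cell line, and the measurements are of RNA and not of surface protein.

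Integrins are receptors made of 1 alpha and 1 beta subunit that bind extracellular matrix outside the cell and, through talin and other adaptors, the actin cytoskeleton inside it. The alpha subunit of *Itgav* pairs with the beta subunits of *Itgb1*, *Itgb3*, *Itgb5* and *Itgb8*, and several of these receptors recognize the arginine-glycine-aspartate (RGD) motif of fibronectin, vitronectin, osteopontin and bone sialoprotein. *Itgb3* encodes the beta subunit of the vitronectin receptor, best known in bone from osteoclasts, and *Itgb8* encodes a beta subunit known for activation of latent TGF-beta. *Itga1* and *Itga11* encode collagen-binding subunits, *Itga5* the fibronectin-binding subunit and *Itga6* a laminin-binding subunit, and each of these pairs with the product of *Itgb1*.

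The cells carried osteoblast RNA. All 11 osteoblast and osteocyte markers passed the filter, with summed levels of 49463 to 59168 CPM, which are counts scaled to a common library size. These sums were almost all *Col1a1* and *Ibsp*. The lowest markers were *Sost*, with 9 to 36 counts per library and a mean of 1.39 CPM in Control, and *Mepe*, with 3.45 CPM. Of 6 osteoclast markers only *Ctsk* passed the filter. *Calcr* and *Dcstamp* had 0 counts in every library, and *Acp5*, *Ocstamp* and *Oscar* reached at most 4 counts. Osteoclast marker sums, almost all *Ctsk*, were 288.4 to 295.1 CPM in Control, 273.5 to 285.1 CPM under BGP and 248.6 to 261.7 CPM under NaHPO4. Of 4 platelet and megakaryocyte markers only *Itga2b* passed, with *Pf4* at 0 counts, and the sums were 3.13 to 4.41 CPM in Control, 2.92 to 3.47 CPM under BGP and 3.09 to 3.58 CPM under NaHPO4. Of 6 macrophage and blood cell markers 3 passed, *Itgam* was at 0 counts, and the sums ranged from 18.3 to 26.8 CPM. None of 4 endothelial and 4 adipocyte markers passed, *Kdr* and *Cidec* were at 0 counts, and no library exceeded a sum of 0.187 CPM.

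The start regions of *Itgb3* and *Itgb8* are shown because these 2 genes gave the set its name and had the largest differences from Control among the 8 genes that passed the filter. *Itgb3* (ENSMUSG00000020689) lies on the plus strand of GRCm39 at chr11:104498826-104561302 and its canonical transcript has 15 exons. *Itgb8* (ENSMUSG00000025321) lies on the minus strand at chr12:119121748-119202584 with 14 exons. The first sequence holds the 250 bases upstream of the canonical *Itgb3* start, chr11:104498576-104498825 (plus strand). The second holds 203 upstream bases of *Itgb8*, chr12:119202585-119202787 (minus strand), without the 47 bases nearest the canonical start, which lie in an exon of another *Itgb8* transcript. Capitals mark matches to the GC box of SP and KLF factors (GGGCGG), the EGR motif (GCGNGGGCG) or the TEAD motif (GGAATG), searched on both strands.

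*Itgb3*: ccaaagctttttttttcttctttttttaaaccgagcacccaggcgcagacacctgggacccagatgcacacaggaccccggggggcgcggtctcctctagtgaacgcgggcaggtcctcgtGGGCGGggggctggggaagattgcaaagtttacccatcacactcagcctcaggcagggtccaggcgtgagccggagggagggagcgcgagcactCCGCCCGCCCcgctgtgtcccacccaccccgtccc
*Itgb8*: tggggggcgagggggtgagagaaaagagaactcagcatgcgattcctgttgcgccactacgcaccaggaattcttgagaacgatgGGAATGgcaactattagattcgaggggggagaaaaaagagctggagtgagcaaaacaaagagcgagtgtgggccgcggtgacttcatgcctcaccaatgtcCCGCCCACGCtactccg

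In *Itgb3* the capitals were 3 GC-box matches, 2 of which overlapped 26 to 35 bases upstream of the start. In *Itgb8* the longest run in capitals was an EGR match (CGCCCACGC, 55 to 63 bases upstream of the canonical start) that overlapped a GC-box match, and the other was a TEAD match 160 to 165 bases upstream. Other promoters held these motifs too, the GC box far more often than the EGR and TEAD motifs. Of 11850 promoters of tested genes with the same length, 50.1% held a GC box, 6.42% the EGR motif and 11.7% the TEAD motif. Among the 9 integrin genes the EGR letters were also found upstream of *Itga11*, the ETS motif (CCGGAAG, 10.4% of promoters) only upstream of *Itga6*, and no match was found in these windows for AP-1 (TGANTCA, 4.49%), RUNX (TGTGGT, 11.4%) or the SRF CArG box (1.13%). The 250 bases held 64.4% GC for *Itgb3* and 56.8% for *Itgb8*, beside a median of 56.8% over all promoters. A match describes letters and is not a measured binding site.

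The other members lie elsewhere in GRCm39, on separate chromosomes except for *Itgav* and *Itga6*. *Itgb1* (ENSMUSG00000025809) is at chr8:129411876-129460618 on the plus strand, with 16 exons in its canonical transcript. *Itgb5* (ENSMUSG00000022817) is at chr16:33649988-33771137 on the plus strand, with 15 exons. *Itgav* (ENSMUSG00000027087, chr2:83554403-83637260, 30 exons) and *Itga6* (ENSMUSG00000027111, chr2:71575960-71689757, 26 exons) are both on the plus strand. *Itga1* (ENSMUSG00000042284) is at chr13:115089632-115238677 on the minus strand, with 29 exons, next to *Mocs2*, whose exons overlap it. *Itga5* (ENSMUSG00000000555) is at chr15:103252713-103275270 on the minus strand and *Itga11* (ENSMUSG00000032243) at chr9:62585108-62691617 on the plus strand, each with 30 exons.

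The levels of the subunits, compared per length as CPM per kb of exon, spanned 4 orders of magnitude. *Itgb1* was the most abundant, with 215.5 CPM per kb over the 9 libraries, and *Itgb5* followed with 82.2 CPM per kb. *Itga11*, *Itgav* and *Itga5* had 23.0, 15.4 and 14.2 CPM per kb, and the libraries of *Itgav* and *Itga5* overlapped in 1 condition. *Itgb3* and *Itga1* had nearly equal means, 2.66 and 2.64 CPM per kb, with overlap in 2 conditions. *Itgb8* had 0.724 CPM per kb, and *Itga6* had 0.0198 CPM per kb. The 2 beta subunits with the largest differences from Control were the 2 least abundant of the 4 beta subunits. With the length of the longest transcript in place of all exons, *Itga1* came before *Itgb3* (5.06 and 3.03 CPM per kb) and *Itgav* overlapped *Itga11* in 2 conditions. The 2 most abundant of the 17 integrin subunits outside the set were *Itga10*, a collagen-binding subunit known from cartilage, with 72.6 CPM per kb, and *Itga3*, a laminin-binding subunit, with 13.3 CPM per kb.

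**Figure D1:**
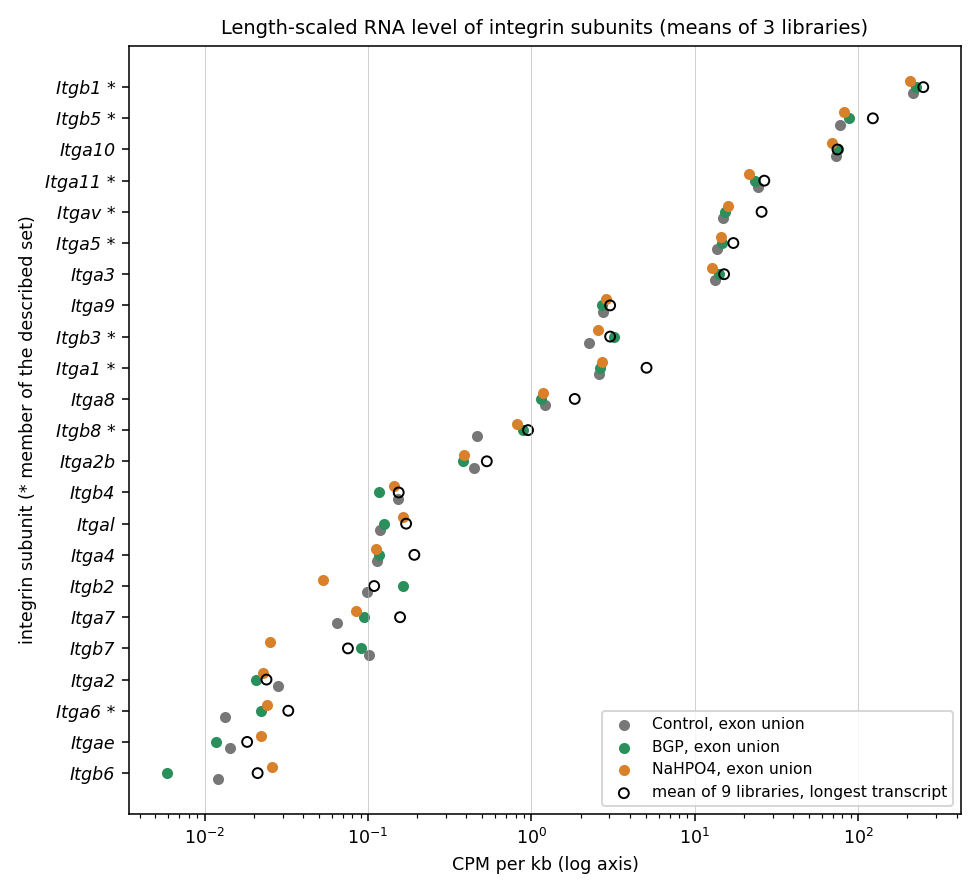
Levels of 23 integrin subunits in CPM per kb (horizontal log axis), with 1 row per subunit and asterisks on the 9 described here. Filled points are means of 3 libraries per condition over the union of exons, and open circles are means of 9 libraries over the longest transcript. *Itgb1* and *Itgb5* lead the order, and among the 4 asterisked beta subunits *Itgb8* is lowest, with its Control point left of both phosphate points.

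Among the 6 beta subunits that passed the filter, *Itgb1* made up 72.8% ± 1.32 (SD, n = 3) of the summed CPM per kb in Control, 71.0% ± 0.978 under BGP and 70.7% ± 1.12 under NaHPO4. *Itgb5* made up 26.2% ± 1.29, 27.6% ± 0.947 and 28.1% ± 0.92 in the same order. These 2 subunits therefore held nearly all beta subunit RNA in each condition. The *Itgb3* share was 0.754% ± 0.08 in Control, 1.01% ± 0.0287 under BGP and 0.878% ± 0.156 under NaHPO4. The *Itgb8* share was 0.158% ± 0.00551, 0.281% ± 0.0337 and 0.281% ± 0.0394, and its 3 Control libraries (0.153% to 0.164%) lay below all 6 phosphate libraries (0.247% to 0.324%). Of the summed CPM per kb of 12 alpha subunits, *Itga10* made up 50.0% ± 0.66 in Control, *Itga11* 16.6% ± 0.131, *Itgav* 10.1% ± 0.627, *Itga5* 9.29% ± 0.0392 and *Itga1* 1.77% ± 0.0485. In a bulk sample, fewer cells of a type and less RNA per cell cannot be told apart.

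*Itgb8* was higher with either phosphate. Its counts were 117, 118 and 132 in Control, 247, 205 and 224 under BGP and 228, 254 and 267 under NaHPO4, replicates 1 to 3. Normalized for library size, these were 5.47, 5.13 and 5.2 CPM in Control, 11.1, 9.21 and 9.63 CPM under BGP and 8.3, 8.92 and 10.4 CPM under NaHPO4. All 6 phosphate libraries were above all 3 Control libraries, and the BGP and NaHPO4 libraries overlapped. The log2FC was 0.92 (standard error 0.122, 1.9-fold) for BGP and 0.81 (standard error 0.121, 1.75-fold) for NaHPO4 against Control. Between BGP and NaHPO4 the *Itgb8* log2FC was 0.12 (standard error 0.11). The comparisons with Control share the Control libraries, so their values are not independent of each other. Leaving out 1 library at a time or changing the fit gave log2FC values of 0.84 to 0.98 for BGP and 0.71 to 0.88 for NaHPO4.

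*Itgb3* was higher under BGP and intermediate under NaHPO4. Its counts were 296, 322 and 420 in Control, 474, 479 and 477 under BGP and 432, 427 and 512 under NaHPO4. Normalized, they were 13.8, 14.0 and 16.5 CPM in Control, 21.4, 21.5 and 20.5 CPM under BGP and 15.7, 15.0 and 20.0 CPM under NaHPO4. The 3 BGP libraries were close to each other and above all others, while the NaHPO4 libraries overlapped Control, with replicate 3 of NaHPO4 near the BGP libraries. The log2FC of BGP against Control was 0.51 (standard error 0.0917, 1.42-fold), just above the absolute log2FC of 0.5 that the study set for differentially expressed genes (DEGs), and that of NaHPO4 against Control was 0.18 (standard error 0.0922, 1.14-fold). The BGP value ranged from 0.47 to 0.60 over the other settings and was below 0.5 without Control replicate 1 (0.47), Control replicate 2 (0.47) or BGP replicate 2 (0.498). Without replicate 3 of NaHPO4 the NaHPO4 value was 0.05. BGP against NaHPO4 gave a log2FC of 0.33 (standard error 0.0885, 1.25-fold), and the values with other settings ranged from 0.25 to 0.46. *Itgb3* has 0.158% of the 50-base windows of its canonical transcript in transcripts of other genes, and *Itgb8* has 0%, so shared reads could touch few of their counts.

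**Figure D2:**
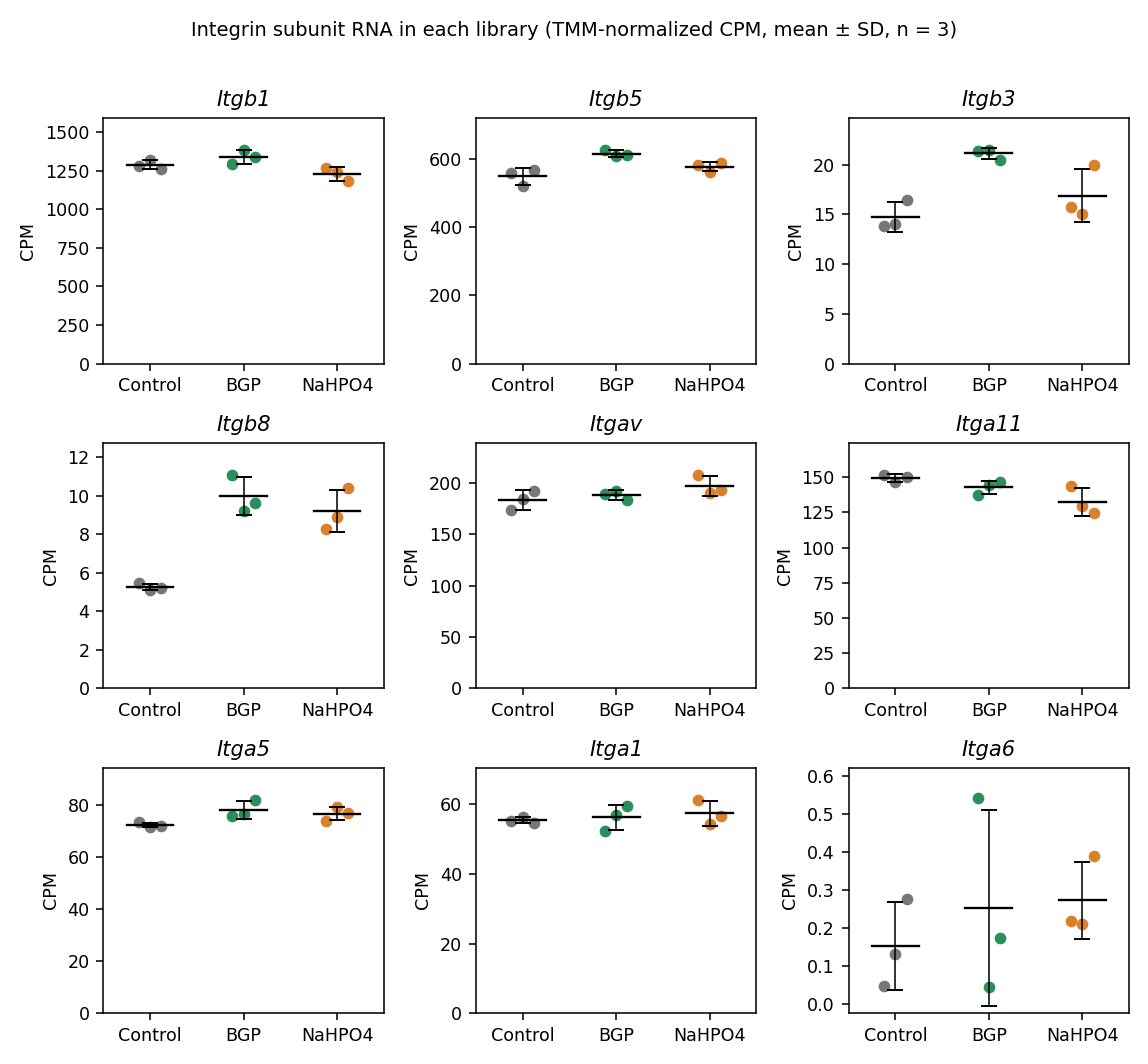
TMM-normalized CPM (vertical axes, from 0 except for *Itga6*) of the 9 integrin subunits in Control, BGP and NaHPO4. Points are single libraries, horizontal lines the means and bars the SD of 3 libraries. *Itgb8* shows 6 phosphate libraries above 5.47 CPM, the highest Control library, and *Itgb3* shows the 3 BGP libraries at 20.5 to 21.5 CPM.

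*Itgb5*, the beta subunit of a second vitronectin receptor, rose under BGP. Its levels were 558.4, 521.1 and 567.9 CPM in Control, 626.5, 608.4 and 611.0 CPM under BGP and 583.2, 561.4 and 586.6 CPM under NaHPO4. The BGP libraries lay above both other conditions without overlap, and the NaHPO4 libraries overlapped Control. The difference of BGP from Control was a log2FC of 0.16 (standard error 0.0335, 1.12-fold, 95% interval 0.10 to 0.23, adjusted p = 0.00225 by edgeR's quasi-likelihood test). It passed in 15 of 15 other settings, with adjusted p from 4.64e-05 to 0.0445. NaHPO4 against Control did not pass (log2FC 0.07, edgeR adjusted p = 0.22), nor did BGP against NaHPO4 (log2FC 0.09, 95% interval 0.03 to 0.16, edgeR adjusted p = 0.106), so a difference between the phosphates was not shown for *Itgb5*. In *Itgb5* 8.049% of the windows were shared with 1 other gene.

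*Itgb1*, the shared partner of most alpha subunits, differed between the phosphates. Its levels were 1282.6, 1321.0 and 1263.6 CPM in Control, 1297.4, 1386.4 and 1337.8 CPM under BGP and 1268.9, 1239.7 and 1183.5 CPM under NaHPO4. Control lay between the treated conditions and overlapped both, and BGP and NaHPO4 did not overlap. *Itgb1* was 1.09-fold higher under BGP than under NaHPO4 (log2FC 0.12, standard error 0.0325, edgeR adjusted p = 0.0161). This call was lost without replicate 2 of BGP (adjusted p = 0.137), without replicate 3 of NaHPO4 (adjusted p = 0.124) and, narrowly, without replicate 2 of NaHPO4 (adjusted p = 0.05). Against Control the *Itgb1* log2FC was 0.06 for BGP (edgeR adjusted p = 0.475) and -0.07 for NaHPO4 (edgeR adjusted p = 0.243).

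*Itga11*, a collagen receptor subunit of mesenchymal cells, fell under NaHPO4. Its levels were 151.8, 146.5 and 150.3 CPM in Control, 137.6, 144.6 and 146.5 CPM under BGP and 143.8, 129.6 and 124.4 CPM under NaHPO4. All NaHPO4 libraries were below all Control libraries, with the widest spread of the 3 conditions (SD 10.0 CPM). The *Itga11* log2FC of NaHPO4 against Control was -0.17 (standard error 0.0416, 0.887-fold, edgeR adjusted p = 0.0057), and without replicate 3 of NaHPO4 it was -0.13 (adjusted p = 0.072). BGP against Control gave -0.07 (95% interval -0.15 to 0.02, edgeR adjusted p = 0.533), and BGP against NaHPO4 gave 0.11 (edgeR adjusted p = 0.15, and 0.0067 without replicate 1 of NaHPO4). *Itga11* shares 143 exonic bases with an antisense gene, *Gm69310*, and whether the counting used strand is not given in the sources used here.

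For the other alpha subunits no comparison passed. *Itgav*, the partner of both genes that named the set, had 173.4 to 191.9 CPM in Control, 182.8 to 192.2 CPM under BGP and 189.9 to 207.7 CPM under NaHPO4. Its log2FC was 0.04 for BGP (95% interval -0.04 to 0.12, edgeR adjusted p = 0.749) and 0.10 for NaHPO4 (95% interval 0.02 to 0.18, edgeR adjusted p = 0.112) against Control, and the latter passed in 1 of 15 other settings, without replicate 3 of Control (adjusted p = 0.0444). *Itga5* had 71.8 to 73.4 CPM in Control, below all BGP libraries (76.0 to 82.2 CPM) and all NaHPO4 libraries (74.1 to 79.2 CPM). The *Itga5* log2FC was 0.11 for BGP (95% interval 0.02 to 0.20, edgeR adjusted p = 0.213) and 0.08 for NaHPO4 (95% interval -0.003 to 0.17, edgeR adjusted p = 0.268). *Itga1* had 54.8 to 56.4 CPM in Control, 52.5 to 59.7 CPM under BGP and 54.3 to 61.4 CPM under NaHPO4, and its log2FC was between -0.03 and 0.05 in the 3 comparisons, with the lowest edgeR adjusted p at 0.658. *Itga1* is the least certain of these counts, since 25.408% of its windows occur in 842 other genes. Of its exonic bases 10.217% overlap *Mocs2* on the other strand and 3.21% overlap *Gm49395* on the same strand. *Itgav* shares 634 exonic bases (5.14%) with an antisense gene, *Gm13684*. *Itga6* had 1, 3 and 7 counts in Control, 12, 1 and 4 under BGP and 6, 6 and 10 under NaHPO4, which is too few for a comparison at this depth.

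Calls are counted over the 6 tested subunits other than *Itgb3* and *Itgb8*, and 1 of them was called in each comparison. For BGP against Control this was *Itgb5* (1.12-fold). Over all tested genes, 1.86% were called higher and 0.665% lower in this comparison, 2.53% in either direction and 0.556% with the minimum absolute log2FC of 0.5. For NaHPO4 against Control it was *Itga11* (0.887-fold), beside 3.43% higher, 3.95% lower, 7.38% in either direction and 0.716% with the minimum fold over all genes. For BGP against NaHPO4 it was *Itgb1* (1.09-fold), beside 3.33% higher, 2.05% lower, 5.38% in either direction and 0.585% with the minimum fold. None of these 3 calls reached the minimum fold. Libraries did not overlap for 3, 2 and 2 of these 6 in the same order, while 18.5%, 23.2% and 21.2% were the background of non-overlap over all tested genes. The log2FC of these 6 stayed between -0.17 and 0.16 in all 3 comparisons, beside a median absolute log2FC of 0.071, 0.081 and 0.076 over all tested genes.

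**Figure D3:**
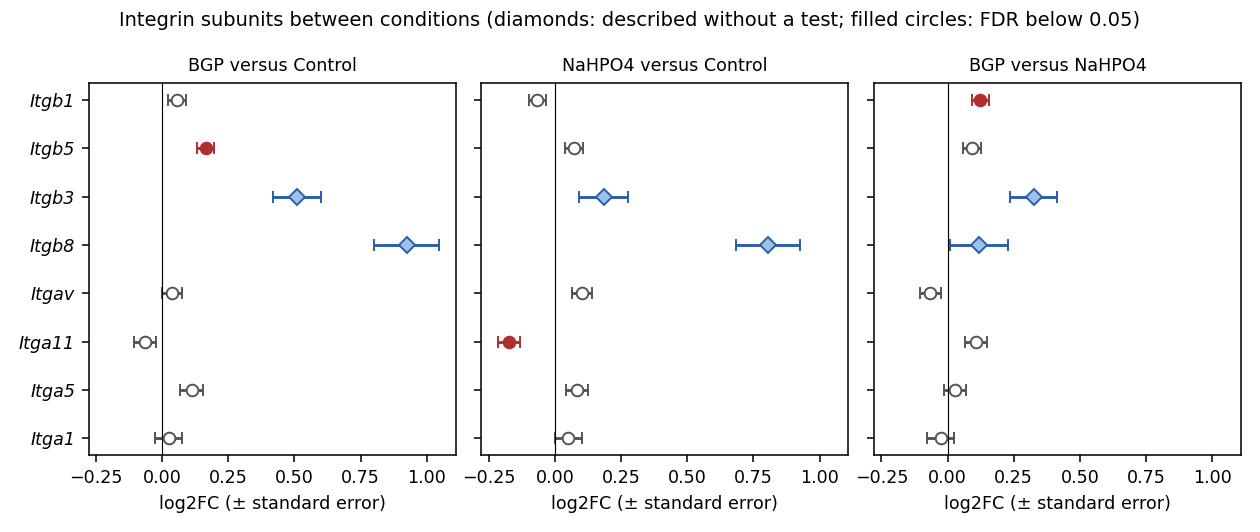
Log2FC with standard error (horizontal axes) of the 8 tested integrin subunits in the 3 comparisons. Diamonds are *Itgb3* and *Itgb8*, given without a test, filled circles have an FDR below 0.05 and open circles do not. *Itgb8* lies at 0.92 and 0.81 against Control, and the 6 other subunits stay between -0.17 and 0.16.

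Several genes followed *Itgb3* and *Itgb8* closely across the libraries. Ranked over 12078 genes by Pearson correlation of log2 CPM across the 9 libraries, the 5 genes most like *Itgb3* were *Cdk9* (r = 0.962), a kinase of transcription elongation, *Mast4* (0.945), *Ror1* (0.945), a Wnt5a receptor, *Sphk1* (0.94), which makes sphingosine-1-phosphate, and *Zdhhc6* (0.939). Their log2FC was smaller than that of *Itgb3*, 0.11 to 0.17 for BGP and 0.02 to 0.06 for NaHPO4 against Control. The 5 most like *Itgb8* were *Insig1* (r = 0.99), a regulator of sterol synthesis, *Etv4* (0.969), an ETS factor downstream of growth factor signalling, *Mgp* (0.969), an inhibitor of calcification, *Dmp1* (0.964), a matrix protein of osteocytes, and *Matr3* (0.964). *Etv4* had 4.64 ± 0.576 CPM (mean ± SD, n = 3) in Control and 17.0 ± 1.83 CPM under BGP and 14.8 ± 2.39 CPM under NaHPO4, a larger difference than that of *Itgb8*, and *Insig1* went from 94.2 ± 2.81 to 117.4 ± 5.39 and 115.7 ± 5.98 CPM. Within the set, *Itgb3* correlated with *Itgb5* (r = 0.887) and *Itgb8* (0.77) and little with its partner *Itgav* (0.217), and *Itgb8* had r = 0.802 with *Itgb5*, 0.361 with *Itgav* and -0.662 with *Itga11*. The 9 points share 3 conditions, so these correlations mostly describe the differences between conditions.

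Calls among the remaining integrin genes were near the share over all genes. Of 17 other subunits 10 were tested, and edgeR called 0 against Control with either phosphate, as did DESeq2. At an unadjusted p below 0.05 there were 0 (BGP) and 1 (NaHPO4). Between BGP and NaHPO4 3 had an unadjusted p below 0.05 and only *Itga10* was called, by both tools. Over all tested genes 2.53% (BGP against Control), 7.38% (NaHPO4 against Control) and 5.38% (BGP against NaHPO4) were called, so 10 genes are too few to tell a difference. The largest log2FC between BGP and NaHPO4, that of *Itgb2*, a leukocyte beta subunit with 2 to 17 counts per library, was 1.60 (95% interval 0.43 to 2.76, edgeR adjusted p = 0.106) with libraries that did not overlap, which did not pass at this depth. Libraries of 21.2% of all tested genes did not overlap in this comparison. *Itga10* had 380.0 ± 9.75 CPM (SD, n = 3) in Control, 390.1 ± 5.24 CPM under BGP and 359.1 ± 10.5 CPM under NaHPO4. Its log2FC between BGP and NaHPO4 was 0.12 (standard error 0.0328, edgeR adjusted p = 0.0223), close to that of *Itgb1*. *Itga3* had a log2FC of 0.13 in the same direction that did not pass (edgeR adjusted p = 0.0686).

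Among the ligands of these receptors, most calls for NaHPO4 were below Control, and most calls between the phosphates were higher under BGP. These were not always the same genes, and the 2 comparisons share the NaHPO4 libraries. Of 52 listed matrix ligands 44 were tested, and 5 rose and 1 fell under BGP (13.6% called), 6 rose and 11 fell under NaHPO4 (38.6%), and 11 were higher and 3 lower under BGP than under NaHPO4 (31.8%). The median log2FC of the tested ligands was 0.01, -0.08 and 0.07 in these comparisons, beside 0.00 in each over all tested genes. The called shares over all tested genes were 2.53%, 7.38% and 5.38%. Of the calls over all genes, 540 of 1009 were lower under NaHPO4 than in Control. Between the phosphates 456 of 736 were higher under BGP. The ligand list was chosen with earlier results of these data known, so its shares are a description and no enrichment was tested. In each comparison 4 ligands reached the minimum absolute log2FC of 0.5, beside 0.556%, 0.716% and 0.585% of all tested genes. DESeq2 called 4 of the 6, 14 of the 17 and 13 of the 14 ligands in the same order. Against Control the largest called differences were in RGD proteins. *Spp1* (osteopontin), a ligand of the *Itgb3* and *Itgb5* receptors, had 1736 ± 126.6 CPM in Control, 4839 ± 348.9 CPM under BGP and 6786 ± 575.9 CPM under NaHPO4 (SD, n = 3), a log2FC of 1.48 and 1.97 against Control. Between BGP and NaHPO4 the *Spp1* log2FC was -0.49 (edgeR adjusted p = 2e-09). *Dmp1*, which also holds an RGD motif, rose by 2.86 and 2.19 on the log2 scale. *Ccn2*, a matricellular protein, rose by 0.96 under BGP and 0.64 under NaHPO4 and was higher under BGP than under NaHPO4 by 0.32 (edgeR adjusted p = 6.68e-05), while *Ibsp* (bone sialoprotein), at 5959 CPM per kb the second most abundant listed ligand, had log2FC values of 0.00 and -0.03. *Col2a1*, a cartilage collagen, had a log2FC of 0.50 under BGP and -0.45 under NaHPO4 against Control, called by edgeR (adjusted p = 0.000754 and 0.00141) and not by DESeq2 (adjusted p = 0.295 and 0.241). Its direct log2FC of 0.95 was called by both tools (edgeR adjusted p = 4.96e-09).

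Collagen chains, ligands of the *Itga1* and *Itga11* receptors, moved in both directions under NaHPO4. Of 13 tested chains edgeR called 8, 3 higher and 5 lower, and DESeq2 called 5. *Col1a1*, the most abundant listed ligand per kb (6195 CPM per kb), was at 43285 ± 2120.4 CPM in Control, 41507 ± 1791.1 CPM under BGP and 37254 ± 1552.5 CPM under NaHPO4 (log2FC -0.22 for NaHPO4 against Control, edgeR adjusted p = 2.47e-05). *Ccn3* fell under NaHPO4 by 0.56 on the log2 scale (edgeR adjusted p = 0.016) and was higher under BGP than under NaHPO4 by 0.66. *Fbn1* (fibrillin) was higher under BGP than under NaHPO4 by 0.53 in edgeR (adjusted p = 0.00994) with libraries that overlapped, and DESeq2 did not call it (adjusted p = 0.328). Among 5 tested genes of latent TGF-beta, the cargo that the *Itgb8* receptor activates, 1 was called under BGP and 1 under NaHPO4 against Control. *Tgfb3* was called under BGP (log2FC 0.18, edgeR adjusted p = 0.0481, DESeq2 adjusted p = 0.072) and *Tgfb1* under NaHPO4 (log2FC -0.16, edgeR adjusted p = 0.00611). Both tools called 2 of the 5 higher under BGP than under NaHPO4. These were *Tgfb1* (log2FC 0.16, edgeR adjusted p = 0.00546) and *Tgfb3* (log2FC 0.20, edgeR adjusted p = 0.00772). Of 7 tested laminin chains 0 were called by edgeR or DESeq2 under BGP, with 0 at an unadjusted p below 0.05, and 1 fell under NaHPO4, *Lamb2* (log2FC -0.16). Between the phosphates both tools called 1 chain, *Lama4*, higher under BGP (log2FC 0.14, edgeR adjusted p = 0.0337). Over all tested genes 2.53% (BGP), 7.38% (NaHPO4) and 5.38% (BGP against NaHPO4) were called, and lists of 5 or 7 genes are too short to compare with these shares.

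**Figure D4:**
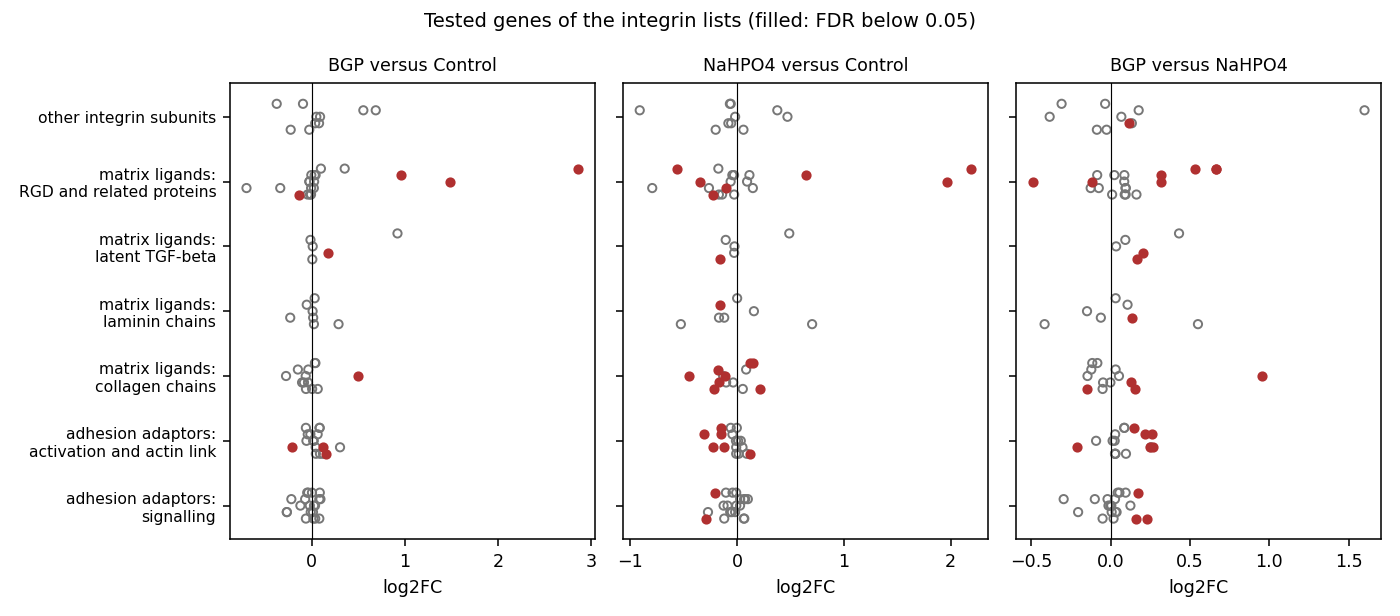
Log2FC (horizontal axes, 1 panel per comparison) of the tested genes of 7 integrin-related lists (rows). Filled points have an FDR below 0.05 and open points do not, and small vertical offsets only separate points. Among adhesion adaptors the filled points are mostly left of 0 for NaHPO4 against Control and mostly right of 0 for BGP against NaHPO4.

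Of 42 listed adhesion adaptors, which join integrins to actin and to kinases, 37 were tested. With BGP 2 rose and 1 fell (8.11% called), under NaHPO4 1 rose and 7 fell (21.6%), and 8 were higher and 1 lower under BGP than under NaHPO4 (24.3%), beside the same 2.53%, 7.38% and 5.38% over all tested genes. Median log2FC values were small, 0.02, -0.01 and 0.03. The adaptor list too was chosen with earlier results of these data known, so its shares are a description and no enrichment was tested. *Flna* (filamin A), which binds beta subunit tails, rose under BGP by 0.13 (edgeR adjusted p = 0.0196), fell under NaHPO4 by 0.13 (edgeR adjusted p = 0.00697) and so had a direct log2FC of 0.25 (edgeR adjusted p = 5.18e-07). *Tns1* (tensin 1), the most abundant listed adaptor per kb, was at 1997 ± 43.0 CPM in Control, 1939 ± 101.8 CPM under BGP and 1616 ± 26.3 CPM under NaHPO4 and fell under NaHPO4 by 0.31 (edgeR adjusted p = 1.85e-08). *Zyx* (zyxin) and *Tgfb1i1* (Hic-5), LIM proteins of focal adhesions, fell under NaHPO4 by 0.22 and 0.29 and were higher under BGP than under NaHPO4 by 0.27 and 0.23. *Tns3* rose with both phosphates, by 0.15 under BGP and 0.13 under NaHPO4. *Tln2* (talin 2), which activates integrins, was 1 adaptor with the opposite direction in the direct comparison, since it fell under BGP by 0.22 (edgeR adjusted p = 0.0296) and had a log2FC of -0.01 under NaHPO4. None of the adaptors called reached the minimum fold in any comparison. Of 20 tested signalling adaptors edgeR and DESeq2 called 0 under BGP, with 4 at an unadjusted p below 0.05.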

How the data were processed

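RNA of differentiated MC3T3-E1 cells was sequenced in 9 libraries, 3 each for Control, BGP and NaHPO4. The deposited raw count table holds whole-number read counts per gene, which the authors made with the AIR software from poly(A) libraries of 2 reads per fragment on GRCm39. Aligner and counting settings are not given in the sources used here. The deposited TMM table holds the same counts scaled per library by the authors, a normalized signal with factors of 1.01 to 1.322, and served only as an alternative. Both tables have 55416 genes, with 0 columns of other samples.

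Counts were fitted with edgeR 4.0.16 (TMM, filterByExpr with a count minimum of 10, quasi-likelihood test, all 9 libraries in 1 fit, Benjamini-Hochberg adjustment over 13679 genes). A gene was called at an FDR below 0.05, and the study's minimum absolute log2FC of 0.5 was a further call. CPM are counts scaled by the TMM library sizes, and CPM per kb divide by the union of exons of GENCODE vM39. DESeq2 1.42.0 and limma 3.58.1 (log2 of the TMM value plus 1) gave alternatives. Sequences were read from GRCm39, since the promoter table at hand was of another build. Overlap with other genes was checked with 50-base windows of canonical transcripts. The tables held 54749 gene IDs of this annotation.

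The members and all gene lists were chosen with earlier results of these data known. Besides the 9 members, genes named were, from each list, those past both calls, the 3 with the largest absolute log2FC among those called in each comparison, and the 2 with the highest CPM per kb. For *Itgb3* and *Itgb8* the 5 genes with the highest correlation were added, among those with a mean of at least 1 CPM. *Tgfb1*, *Tgfb3*, *Lamb2*, *Lama4*, *Itgb2*, *Sost*, *Mepe*, *Col3a1*, *Col4a1* and *Pxn* were named after their values were seen. Precision is limited by 3 libraries per condition and, for *Itgb8* and *Itga6*, by low counts.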

Additional observations from a re-analysis of the deposited data

How the results depend on the processing

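Among the members, *Itga1*, *Itga5* and, at 0.00, *Itgav* changed sign in at least 1 setting without a call there, and no called difference reversed. Calls are given here for the 6 tested members other than *Itgb3* and *Itgb8*, which were selected on these values and have no test. With a minimum absolute log2FC of 0.5 none of the 3 calls, those of *Itgb5*, *Itga11* and *Itgb1*, remained. Leaving out 1 library at a time, *Itga11* stayed called for NaHPO4 against Control except without NaHPO4 replicate 3. In the same comparison *Itgav* was also called without Control replicate 3. For BGP against NaHPO4 the call of *Itgb1* was lost without BGP replicate 2, NaHPO4 replicate 2 or NaHPO4 replicate 3. Without NaHPO4 replicate 1 *Itga11* was called there as well. For BGP against Control *Itgb5* was called in each fit that left out a library. The *Itgb3* log2FC of BGP against Control, given as a description, was below 0.5 without Control replicate 1, Control replicate 2 or BGP replicate 2. DESeq2, DESeq2 size factors, no filter on low counts, the 2 groups alone and limma on the deposited TMM table left the 3 calls unchanged. A replicate block (the number as a factor) also left them unchanged and gave, for matrix ligands with NaHPO4, 16 calls in place of 17. DESeq2 called fewer matrix ligands than edgeR, 4 in place of 6 for BGP and 14 in place of 17 for NaHPO4. The ligand calls lost were *Col2a1* and *Tgfb3* for BGP, *Col2a1*, *Col3a1* and *Col4a1* for NaHPO4, and *Fbn1* between the phosphates. Among adaptors DESeq2 lost the call of *Pxn* between the phosphates. Libraries with the same number did not deviate together (correlations of -0.0092 to 0.0426 over 9 pairs), so the numbers were not used as pairs. In the limma fit, 49.4% of all calls between BGP and NaHPO4 were higher with BGP, against 62.0% in the edgeR fit. With the longest transcript as length, the *Itgb1* share among beta subunits in Control was 67.7% in place of 72.8%, with *Itgb5* at 31.4% and *Itgb8* at 0.166%. With 3 libraries a group and log2FC values of 0.12 and -0.17, the calls of *Itgb1* and *Itga11* did not hold in every fit that left out 1 library. *Itga6* was not measurable at this depth.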
